A study of Mesocricetus auratus with 8 samples.

Results

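A set of 10 genes of the muscle cell cytoskeleton were followed in cultured hamster satellite cells (SCs) kept at 37 °C or exposed to cold. The genes were taken by symbol and encode intermediate filament proteins (Des, Vim, Nes, Sync, Synm), the linker protein plectin (Plec) and proteins of the costamere or of cell adhesions (Smpx, Vcl, Tln1, Tln2). All 10 were found among the 17590 genes with values, and all 10 passed the filter on low counts that left 12506 genes for testing. Smpx, and Dtna, Acta1 and Myh3 from the lists described further on, are among those that the study itself names as lower in these libraries, so that their values here, and the counts that include them, are not independent evidence.

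Intermediate filaments are rope-like polymers that give a cell tensile strength. Dividing myoblasts build them mainly from vimentin, nestin and desmin, and mature fibres mainly from desmin, which ties neighbouring myofibrils to each other and to the membrane. Costameres are the rib-like attachment sites at which the outermost Z-discs of a fibre are fixed to the membrane and to the matrix outside, through the integrin, talin and vinculin system and through the dystrophin complex.

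The SCs, which are the stem cells that rebuild muscle fibres, came from hindlimb muscle of wild-type Syrian hamsters (Mesocricetus auratus), all sexually mature males, and were purified by preplating and grown on Matrigel in growth medium (GM). All dishes had 48 h in GM and 24 h in GM with HEPES at 37 °C. The 4 control libraries were made at that point, and the 4 cold libraries after a further 24 h at 4 °C in the same medium, so that the cold dishes were also older and a change with time cannot be told apart from a change with temperature. The treatment labels of the controls give 3, 4, 5 and 6 days at 37 °C for replicates 1 to 4, whereas their titles all give day 3, and this was not resolved. The labels do not say what the replicate numbers mark.

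PolyA RNA was sequenced, and levels are given as TPM (transcript abundances scaled to a fixed total per library), which are corrected for transcript length and can be compared between genes. The libraries held 16530747 to 18533801 expected counts. Along the first principal component of all genes (53.9% of the variance) replicates 1 and 2 lay apart from replicates 3 and 4 in both groups, and the second component (17.9%) separated cold from control. Libraries with the same number deviated together, so each difference is given from an edgeR fit in which the replicate number entered as a block and, where the call differs, also from the fit without a block, since the study's methods describe none. A gene was called when its Benjamini-Hochberg adjusted p over all genes tested was under 0.05, or, under the stricter definition of the study, when the log2 fold change was also at least 1 in size. SC markers were present in every library: Pax7, named outside the rule because it defines the cells, had 12.7 ± 2.2 TPM in controls and 13.5 ± 1.7 in cold, and Myod1, the highest of its list, had 614 ± 103 and 567 ± 98 (SD, n = 4 per group).

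In 9 of the 10 genes the cold libraries overlapped the controls, whereas Smpx was lower in every cold library than in any control, a separation seen in 2.41% of all tested genes below their controls and in 2.27% above. Smpx fell 5.46-fold in the blocked fit and was the only gene of the 10 to pass a threshold there. The blocked 95% intervals of the other 9 all lay between 0.843 and 1.13 times the control level. The background was 0.808% of all tested genes called lower and 0.04% called higher with both thresholds in the blocked fit. With the adjusted p alone it was 4.07% lower and 1.26% higher, and again 1 of the 10 genes was called. Without the block 0 of the 10 genes were called by edgeR, 1, Smpx, was lower with an unadjusted p under 0.05 and DESeq2 called it. In all genes these shares were 4.13% lower and 2.57% higher at the unadjusted p, and 1.1% called lower by DESeq2 with the adjusted p alone. In the unblocked edgeR fit 0.04% of all genes were called lower and 0% higher with both thresholds. In the higher direction 6 genes had an unadjusted p under 0.05 and a log2 fold change of 1 or more there.

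The 10 genes spanned a wide range of levels. Vim was the highest and Smpx the lowest, in the order Vim, Des, Nes, Vcl, Tln1, Plec, Sync, Tln2, Synm and Smpx by mean TPM over the 8 libraries. Vim ranked 21 among the 17590 genes with values, Des 180 and Nes 254, whereas Synm ranked 8857 and Smpx 9992. Each gene of this order lay above the next in all 8 libraries with no overlap of their ranges, except Synm and Smpx, which overlapped and kept the order in 6 of 8 libraries. The separation was narrow for Tln1 over Plec, with a lowest Tln1 value of 87.5 TPM and a highest Plec value of 85.0 TPM, and for Sync over Tln2, with 35.0 and 33.4 TPM. Together the 10 genes held 5813 to 6493 TPM in controls and 6191 to 6729 TPM in cold, of which Vim alone made up 68.1% to 72.2%.

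**Figure D1:**
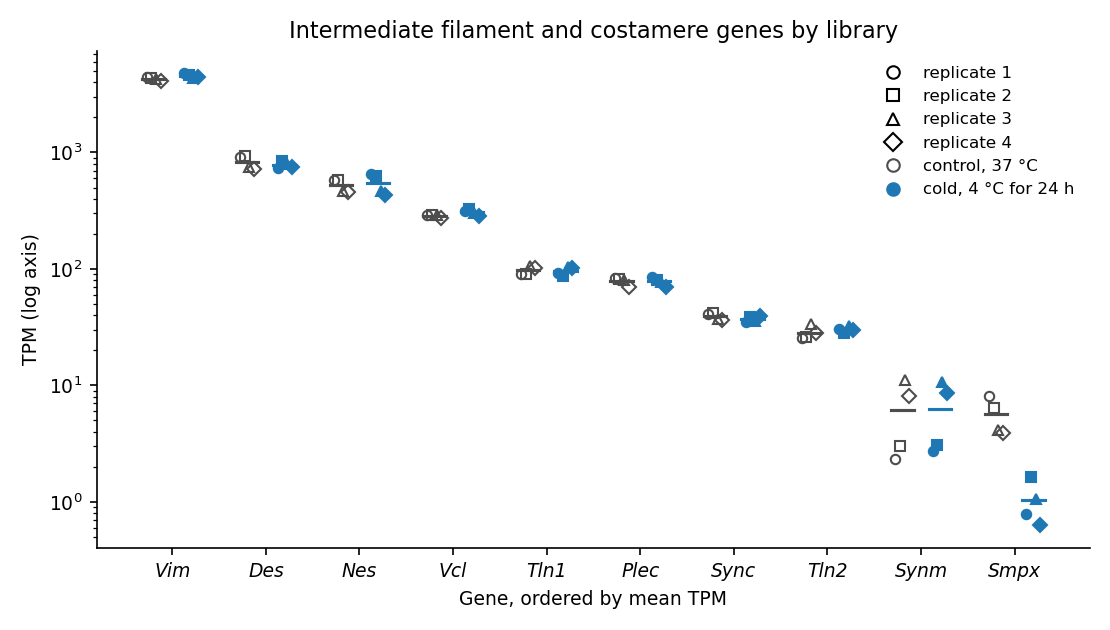
TPM of the 10 genes (logarithmic y axis) in the 4 control libraries (open grey symbols) and the 4 cold libraries (filled blue symbols). Symbol shape gives the replicate number and bars the group means. Smpx is the only gene of the 10 whose groups do not overlap, from 3.90 to 8.19 TPM in controls and from 0.63 to 1.65 TPM in cold.

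Of the intermediate filament genes, Vim (gene ID 101824289) encodes vimentin, the filament protein of mesenchymal cells and myoblasts. It measured 4453, 4370, 4247 and 4109 TPM in control replicates 1 to 4 and 4780, 4627, 4365 and 4478 TPM in cold replicates 1 to 4. Every cold library lay above the control of its number, but the groups overlapped. The blocked log2 fold change was 0.07 ± 0.03 (SE), with a 95% interval from 0.004 to 0.14 and an adjusted p of 0.244 in edgeR. The exact permutation test of the TPM values gave p = 0.0857 (two-sided, n = 4 per group), where 0.0286 is the smallest p that 4 against 4 libraries allow. A rise in 4 of 4 pairs was found in 12.8% of all tested genes.

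Des (gene ID 101837949) encodes desmin, the muscle-specific filament protein. Control replicates 1 to 4 had 916, 924, 755 and 724 TPM and cold replicates 1 to 4 had 735, 850.3, 798 and 751 TPM. The cold values were lower than the control of the same number in replicates 1 and 2 and higher in replicates 3 and 4, and the groups overlapped. The blocked log2 fold change was -0.09 ± 0.05 (SE), with a 95% interval from -0.21 to 0.02 and an adjusted p of 0.408 in edgeR.

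The difference between these pairs was itself tested, with a term for the cold effect in replicates 3 and 4 minus that in replicates 1 and 2. For Des it was 0.35 ± 0.06 on the log2 scale (adjusted p = 5.08e-05 in edgeR). Separate edgeR fits gave a cold effect of -0.27 in replicates 1 and 2 alone (adjusted p = 0.00127). In replicates 3 and 4 alone it was 0.079 (adjusted p = 0.997), so a rise there was not shown. The fit with the added term has 2 residual degrees of freedom, and its error leans on the spread of all genes. The division into replicates 1 and 2 against 3 and 4 was found in these data and is not a group of the study. The same term was called in 3% of all tested genes. Sync gave 0.27 ± 0.08 (adjusted p = 0.0577), with cold effects of -0.27 and 0.005 in the separate fits, and the term did not pass. The other 8 genes had adjusted p-values of 0.431 or more.

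Des made up 17.1%, 17.4%, 15.1% and 15.0% of the Des plus Vim TPM in control replicates 1 to 4, and 13.3%, 15.5%, 15.5% and 14.4% in cold. The mean share was 16.1% ± 1.3 in controls and 14.7% ± 1.0 in cold (SD, n = 4 per group), a difference of -1.47 percentage points that did not pass the exact permutation test (p = 0.171, two-sided).

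Nes (gene ID 101843961) encodes nestin, a filament protein of progenitor cells that polymerises with vimentin or desmin. Its control libraries had 584, 583, 464 and 458 TPM and its cold libraries 655, 626, 465 and 435 TPM. In both groups replicates 1 and 2 were the high libraries and replicates 3 and 4 the low ones, with the mean of replicates 3 and 4 at 0.79 of that of replicates 1 and 2 in controls and 0.703 in cold. The blocked log2 fold change between cold and control was 0.03, with an adjusted p of 0.672 in edgeR, and the exact permutation p was 0.6.

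Synm (gene ID 101823423) encodes synemin, a large filament protein that joins desmin filaments to costamere proteins. It was at 2.35, 3.00, 11.1 and 8.16 TPM in control replicates 1 to 4 and at 2.75, 3.06, 10.8 and 8.57 TPM in cold. The 4 libraries of replicates 3 and 4 were all higher than the 4 of replicates 1 and 2, whatever the temperature. The ratio of their means was 3.61 in controls and 3.33 in cold, and 0.576% of tested genes had a larger ratio in either direction over the 8 libraries. What separates the replicate numbers was not tested.

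Between cold and control Synm differed by a blocked log2 fold change of 0.03, with a 95% interval from -0.12 to 0.18 and an adjusted p of 0.884 in edgeR. Without the block its standard error was 0.56 and the interval ran from -1.23 to 1.27, the widest of the 9 genes other than Smpx. The 3 genes whose log2(TPM + 1) values followed Synm most closely over the 8 libraries, out of 10500 compared, were Ca5b, Ntn4 and Capn2 (Pearson r of 0.995 for each); the 8 points include the step between replicates 1 and 2 and replicates 3 and 4. For Nes, whose step ran the other way, these were Fmn1, Acsl3 and Prrc1 (r of 0.995, 0.992 and 0.989).

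Sync (gene ID 101831683) encodes syncoilin, an intermediate filament protein that binds desmin and the dystrobrevin of the dystrophin complex. Its values were 40.6, 42.2, 37.3 and 36.7 TPM in controls and 35.0, 38.8, 35.7 and 39.3 TPM in cold. It was lower in cold in replicates 1, 2 and 3 and higher in replicate 4. The blocked log2 fold change was -0.13 ± 0.06 (SE), with a 95% interval from -0.25 to -0.01, and the adjusted p of 0.212 in edgeR did not pass.

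Plec (gene ID 101836251) encodes plectin, the linker that couples intermediate filaments to costameres, Z-discs and the nuclear envelope. It ran from 70.5 to 83.9 TPM in controls and from 70.6 to 85.0 TPM in cold, nearly the same range. Its blocked log2 fold change was -0.03 (adjusted p = 0.649 in edgeR), and no cold library differed from the control of its number by more than 0.05 on the log2 TPM scale.

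**Figure D2:**
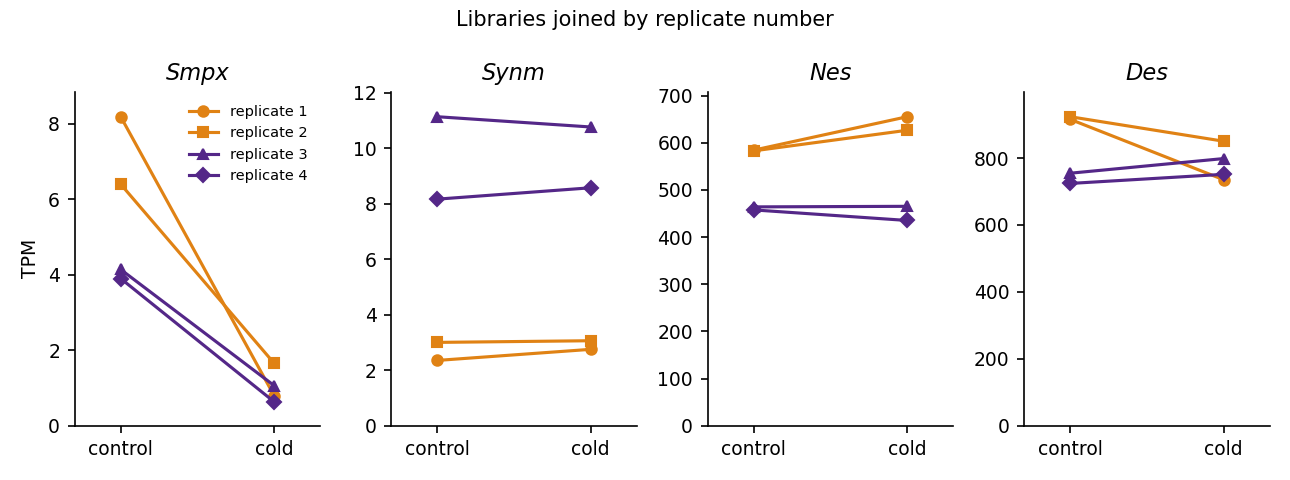
TPM of Smpx, Synm, Nes and Des (linear y axes from 0) in control and cold libraries, joined by replicate number, with replicates 1 and 2 in orange and replicates 3 and 4 in purple. Smpx is lower in cold in 4 of 4 pairs, Synm and Nes divide by replicate number in both groups, and Des is lower in cold in replicates 1 and 2 and higher in replicates 3 and 4.

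Of the costamere genes, Smpx (gene ID 101843684) encodes the small muscle protein X-linked, a short protein of striated muscle found at costameres. It was at 8.19, 6.40, 4.14 and 3.90 TPM in control replicates 1 to 4 and at 0.79, 1.65, 1.06 and 0.63 TPM in cold. Every cold library lay below every control library, with no overlap. A lower value in 4 of 4 pairs, which Smpx also showed, was found in 10.5%.

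These levels rest on few reads. The expected counts were 77, 63, 37 and 38 in controls and 8, 16, 10 and 6 in cold, whole numbers in every library. The lowest control count of 37 has an exact Poisson 95% interval from 26.1 to 51, and the highest cold count of 16 one from 9.1 to 26.0, which covers counting error only. The 4 pairs differed 10.4-, 3.88-, 3.91- and 6.19-fold.

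The mean fell from 5.66 ± 2.03 TPM in controls to 1.03 ± 0.45 TPM in cold (SD, n = 4 per group). In the blocked edgeR fit the log2 fold change was -2.45 ± 0.24 (SE), a 5.46-fold lower level with a 95% interval from 3.83- to 7.78-fold and an adjusted p of 1.25e-06. It was the ninth lowest fold change of all tested genes. Without the block the fold change was the same, its 95% interval was 3.03- to 9.82-fold, and the adjusted p of 0.056 in edgeR did not pass. The exact permutation test of the TPM values gave 0.0286, the smallest p it can give. In bulk RNA, fewer cells that express Smpx and less Smpx RNA per cell cannot be told apart.

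The genes most like Smpx over the 8 libraries were Prkaca, Acta1 and Rap1gap2, with a Pearson r of log2(TPM + 1) of 0.993, 0.993 and 0.985. Acta1, the skeletal muscle actin, fell from 644 ± 222 to 176 ± 38 TPM (blocked) and also belongs to a list of markers of differentiating myocytes and fibres. The 11 markers of that list summed to 2150 to 4023 TPM in controls and 1128 to 2053 TPM in cold. In the blocked edgeR fit 9 of its 10 tested genes fell, against 4.07% of all genes, and none was at 0 in every library. Without the block 0 of these were called in edgeR and 5 had an unadjusted p under 0.05. The most abundant of them by the mean over the 8 libraries, the troponin gene Tnnt3, fell from 737 ± 265 to 471 ± 146 TPM (blocked). The part of these markers in the Smpx result was not tested.

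Vcl (gene ID 101829918) encodes vinculin, which links talin to actin at focal adhesions and costameres. It measured 291, 293, 289 and 272 TPM in controls and 313, 326, 302 and 287 TPM in cold. Every cold library was above the control of its number, while the lowest cold library lay within the control range. The blocked log2 fold change was 0.08 ± 0.03 (SE), with a 95% interval from 0.01 to 0.15 and an adjusted p of 0.184 in edgeR, and the exact permutation p was 0.114.

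The talins bind the tails of beta integrins and couple them to actin. Tln1 (gene ID 101831601), the widely expressed talin, was at 89.7, 91.3, 107 and 103 TPM in controls and at 92.5, 87.5, 103 and 102 TPM in cold, so that replicates 3 and 4 were the higher libraries in both groups. Its blocked log2 fold change was -0.04 (adjusted p = 0.59 in edgeR).

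Tln2 (gene ID 101836988), the talin enriched in striated muscle, was at 25.3, 25.9, 33.4 and 28.1 TPM in controls and at 30.3, 28.1, 32.4 and 30.1 TPM in cold. It was higher in cold in 3 of 4 pairs, and the groups overlapped. The blocked log2 fold change was 0.09 ± 0.04 (SE), with a 95% interval from -0.003 to 0.18 and an adjusted p of 0.296 in edgeR.

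Tln2 made up 22.0%, 22.1%, 23.8% and 21.5% of the summed talin TPM in control replicates 1 to 4 and 24.7%, 24.3%, 23.9% and 22.9% in cold. The share was higher in cold in 4 of 4 pairs, by 0.10 to 2.66 percentage points. The means were 22.3% ± 1.0 and 23.9% ± 0.8 (SD, n = 4 per group), and the difference of 1.58 percentage points had an exact permutation p of 0.0571 (two-sided). Over the pairs the exact sign-flip test gave 0.125, the smallest p that 4 pairs allow.

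**Figure D3:**
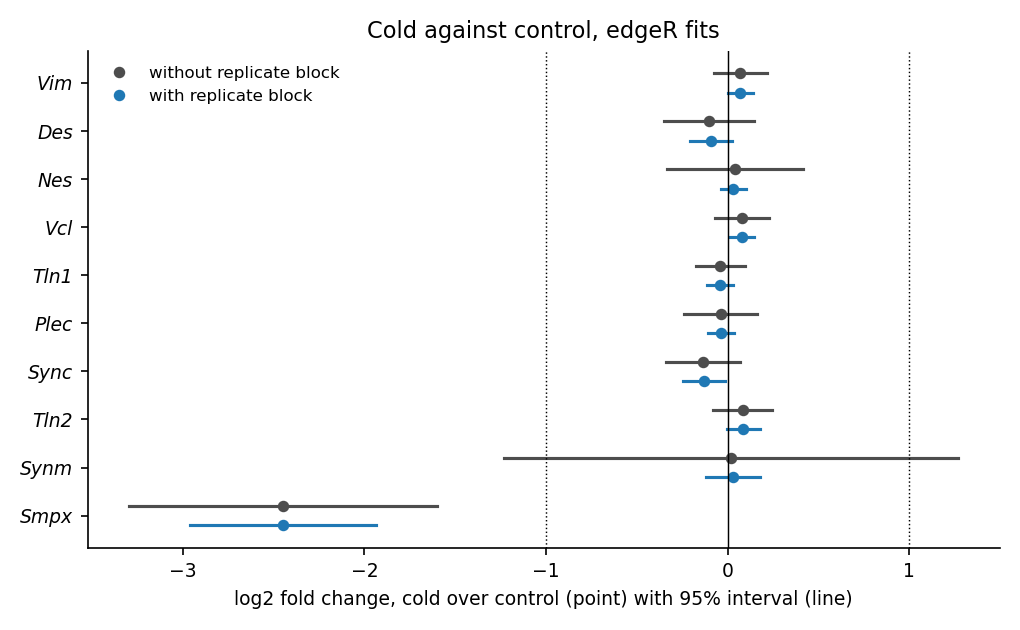
log2 fold change of cold over control for the 10 genes (points) with 95% intervals (lines) from the edgeR fits without (grey) and with (blue) the replicate number as a block, on a linear x axis with dotted lines at -1 and 1. Smpx lies at -2.45 in both fits, and the blocked intervals of the other 9 genes stay between -0.25 and 0.18.

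As a set, the 10 genes had a median blocked log2 fold change of -0.003 and a median absolute one of 0.075, beside 0.008 and 0.069 over all 12506 genes tested. With the block 3 of the 9 genes other than Smpx (Vim, Vcl and Sync) had an unadjusted p under 0.05, the first 2 above and the third below their controls, and none passed the adjustment. Over all genes tested, 8.48% were higher and 9.76% lower with an unadjusted p under 0.05 in that fit.

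Related genes were followed on 3 lists. The list of muscle costamere genes, which holds the dystrophin complex and muscle LIM and Z-disc proteins, held most of the calls. In the blocked edgeR fit 16 of its 27 tested genes fell and 0 rose, 59.3% against a background of 4.07%, with a median log2 fold change of -0.22. Of the 16, 5 also passed the fold change threshold of the study's definition. Without the block 0 of the 27 were called by edgeR, 11 were lower with an unadjusted p under 0.05, against 4.13% of all genes, and DESeq2 called 7, against 1.1%. The calls also depended on the replicates: edgeR called 17 genes of the list lower in replicates 1 and 2 alone and 2 in replicates 3 and 4 alone. The markers of differentiating myocytes and fibres moved with this list as well, with 9 of 10 called lower in the blocked fit and sums that did not overlap (2150 to 4023 TPM in controls and 1128 to 2053 TPM in cold), and their part in the fall of the list was not tested.

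Among the largest falls on this list were those of Csrp3, the muscle LIM protein of the Z-disc (15.9 ± 11.2 to 2.44 ± 1.82 TPM, log2 fold change -2.75, adjusted p = 4.98e-10), and of Cav3, the caveolin of muscle (7.05 ± 4.44 to 1.60 ± 0.90 TPM, -2.15, adjusted p = 5.91e-07). The dystrobrevin Dtna, to which syncoilin binds, fell from 8.68 ± 4.16 to 3.59 ± 0.81 TPM (-1.19, adjusted p = 5.17e-06). Supervillin (Svil), named after its value was seen, also passed both thresholds and fell by 1.13 on the log2 scale (adjusted p = 1.21e-09). Dmd, dystrophin itself, which was likewise picked out after the values were seen, was at 15.9 ± 1.1 TPM in controls and 15.7 ± 0.7 in cold (-0.12, adjusted p = 0.175). The most abundant gene of the list, the ankyrin repeat gene Ankrd1, had 1368 ± 96 and 1294 ± 114 TPM (adjusted p = 0.156), and the LIM protein gene Fhl1 fell from 316 ± 67 to 271 ± 32 TPM (-0.22, adjusted p = 0.00838). All these values are from the blocked edgeR fit. Without the block none of the falls passed in edgeR. The adjusted p was then 0.269 for Csrp3, 0.306 for Cav3 and Svil, 0.36 for Dtna and 0.958 for Fhl1.

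General adhesion genes made up the second list. Of 18 tested genes of integrin adhesions and focal adhesions, 1 fell (5.56%, close to the 4.07% of all genes called lower) and 0 rose in the blocked edgeR fit, where 2 were lower and 2 higher with an unadjusted p under 0.05, and their median log2 fold change was 0.01. The gene called was Itga7, the laminin-binding integrin of muscle, from 209 ± 31 to 172 ± 24 TPM (-0.29, adjusted p = 1.14e-05), which is also on the list of SC markers. The most abundant, filamin A (Flna, 627 ± 57 and 646 ± 17 TPM) and integrin beta 1 (Itgb1, 458 ± 12 and 466 ± 9 TPM), had adjusted p-values of 0.728 and 0.936 in that fit.

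Of 18 other intermediate filament and plakin genes 11 were tested, and 1 of them rose, the lamin gene Lmnb1, from 96.7 ± 6.3 to 107 ± 8 TPM (0.13, adjusted p = 0.0494 in the blocked edgeR fit), where 1.26% of all genes were called higher. A single call on a list of this size is no result about the list. None fell, and at an unadjusted p under 0.05 3 were higher and 0 lower. Lmna, the gene of lamins A and C, had 592 ± 98 and 621 ± 69 TPM, and the keratin gene Krt18 216 ± 34 and 235 ± 41 TPM (adjusted p of 0.492 and 0.207). Without the block edgeR called 0 genes of both lists, and 0 had an unadjusted p under 0.05.

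**Figure D4:**
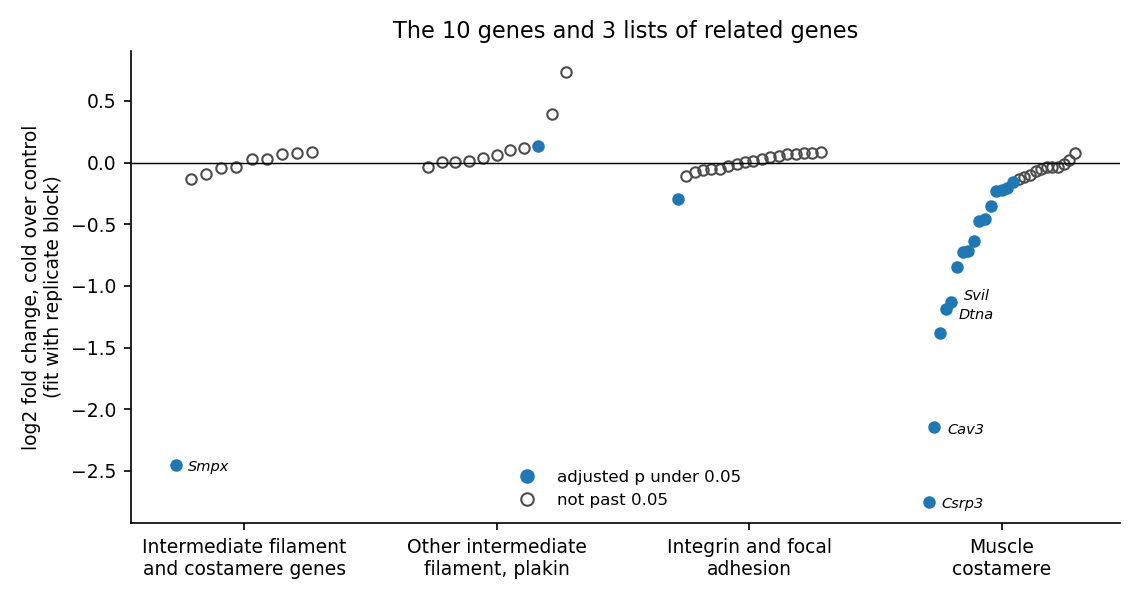
log2 fold change of cold over control in the edgeR fit with the replicate block (linear y axis) for the 10 genes and the tested genes of 3 related lists, ordered within each by value; filled points passed an adjusted p under 0.05. In the muscle costamere list 16 of 27 genes are filled, all below 0, beside 1 of 10, 1 of 11 and 1 of 18 in the others.

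Apart from those of differentiating myocytes and fibres, the summed levels of markers of other cells overlapped between the groups. The 7 fibroblast markers with values summed to 1217 to 1739 TPM in controls and 1201 to 1687 TPM in cold, led by Thy1, and 0 of 7 were called in the blocked edgeR fit, with 1 lower at an unadjusted p under 0.05. Pericyte and smooth muscle markers, led by Pdgfrb, summed to 67.5 to 93.9 and 67.1 to 89.6 TPM, and macrophage and leukocyte markers to 26.0 to 54.3 and 26.5 to 55.7 TPM. The latter sums came mostly from Cd68, and the defining leukocyte genes Ptprc and Adgre1, also named outside the rule, stayed at or below 0.03 TPM. Endothelial markers, led by Cdh5, and Schwann cell markers summed to less than 4 TPM in every library. The 7 SC and myoblast markers summed to 1046 to 1247 TPM in controls and 939 to 1143 TPM in cold, and 3 of them fell in the blocked edgeR fit, against 4.07% of all genes. These were Cdh15, the cadherin of SCs, named after its value was seen (-0.32 on the log2 scale, adjusted p = 1.19e-05), Itga7 (-0.29, adjusted p = 1.14e-05) and Myod1 (-0.13, adjusted p = 0.02). Without the block 0 of the 7 were called by edgeR and 0 had an unadjusted p under 0.05, and the adjusted p of Myod1 was 0.999.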

How the data were processed

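RNA-seq libraries of 4 control and 4 cold-exposed SC cultures were analysed. The authors deposited, for each library, expected counts, TPM and normalized counts (a signal, not used here) per gene. The submitters' processing notes name HISAT and HISAT2. Versions and the genome build are not given in the sources used here, and the strand setting of the counting is not known. Expected counts were rounded, filtered with filterByExpr, scaled by TMM and tested with edgeR 4.0.16 quasi-likelihood F tests in R 4.3.3, with Benjamini-Hochberg adjustment over 12506 genes. The code was tested on simulated counts. Standard errors are the absolute log2 fold change over the square root of F. Single values were compared by exact permutation tests (SciPy 1.17.1) over the 70 arrangements of 4 against 4 libraries. All 24 per-library columns could be assigned to libraries; the 16 of TPM and expected counts were used and the 8 of normalized counts were not.

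Pairing was taken from the data: deviations from group means correlated at 0.603 to 0.65 between libraries of the same number, above the threshold of 0.1. Other pairs on the same side of the first component, at 0.431 to 0.581, passed it as well. The threshold therefore does not set pairing by number apart from that split. The replicate block is therefore given beside the unblocked fit. What the numbers mark is not stated. Unblocked p-values measure the spread between these libraries, and blocked ones the spread left after differences between replicate numbers are removed.

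The genes, lists and tests were chosen with earlier results of these data known. Named are the 10 genes; from each of the 3 related lists up to 4 called genes with the largest fold change in the blocked fit and the 2 most abundant; the 3 genes most alike in log2(TPM + 1) for 3 of the 10; and of each marker list the most abundant gene and those at 0. Pax7, Cdh15, Ptprc, Adgre1, Svil, Dmd and Myh3 are named outside it. Some genes that this rule names are not reported here. Alternatives were DESeq2 1.42.0, limma 3.58.1 on log2(TPM + 1) or log2(TPM + 0.1), other size factors and filters, leaving out libraries, and replicates 1 and 2 or 3 and 4 alone. The interaction with replicate number, and the blocked versions of the size factors, of leaving out a number and of limma, were added after seeing the data.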

Additional observations from a re-analysis of the deposited data

Results flagged for a closer look

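One result stood out because its cold effect differed between replicate numbers. For Des the cold effect in replicates 3 and 4 exceeded that in replicates 1 and 2 by 0.35 on the log2 scale (adjusted p = 5.08e-05, edgeR interaction term with the replicate number as a block), with 2 of 2 pairs lower in cold in replicates 1 and 2 and 2 of 2 pairs higher in replicates 3 and 4. In replicates 3 and 4 alone the Des difference of 0.079 did not pass (adjusted p = 0.997 in edgeR). The division into these pairs was taken from the first principal component of the same libraries, and the term was added after the data were seen. No group value of the 10 genes or the shares lay apart from the other 3 by Dixon's test at the 95% level, in 24 groups tested, where chance alone flags about 1.2.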

How the results depend on the processing

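With both thresholds 5 genes were called in the unblocked edgeR fit and 106 with the replicate block, and with the adjusted p alone 9 and 667. The pairs of counts for both thresholds and the adjusted p alone were 66 and 142 in DESeq2, 85 and 360 in DESeq2 with the block, 8 and 14 with library totals, 15 and 25 without a count filter, 3 and 4 with a mean of 10 counts per group, 3 and 4 in limma with either pseudocount, 183 and 1442 in replicates 1 and 2 alone, and 28 and 50 in replicates 3 and 4 alone. In fits with the replicate block added later they were 107 and 659 (RLE size factors), 105 and 673 (library totals) and 86 and 291 (limma). Leaving out single libraries without the block gave 0 to 34 and 0 to 46, the highest without control replicate 3, and leaving out replicate 1, 2, 3 or 4 from both groups with the block gave 88 and 394, 101 and 356, 135 and 574, and 117 and 927. Of the 10 genes, 0 were called without the block and 1, Smpx, with the block by either rule, and likewise 1 in DESeq2, in DESeq2 with the block, without a count filter, and with the block under RLE, library totals and limma. In replicates 1 and 2 alone 1 was called with both thresholds and 3 with the adjusted p alone, Smpx, Des and Sync. Leaving out single libraries called 0 to 1, the 1 being Smpx without control replicate 3. Leaving out a number with the block called 1, or 2 with the adjusted p alone without replicate 4, where Sync joined Smpx (-0.19, adjusted p = 0.0353 in edgeR).

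Smpx ran from -2.79 (without cold replicate 2) to -1.69 (limma on log2(TPM + 1), a scale that shrinks low genes) over 26 alternatives and was called in 13, which are 9 of 9 with the block and 4 of 17 without it (DESeq2, no count filter, without control replicate 3, replicates 1 and 2 alone). Its adjusted p was at most 0.000474 with the block and at most 0.27 without. Direction changed below the threshold for Des (0.079), Nes (-0.019) and Sync (0.0050) in replicates 3 and 4 alone, and when single libraries were left out for Synm (-0.35 to 0.46), Nes (-0.065 to 0.13) and Plec (-0.11 to 0.0086). With the block Synm was also at -0.0047 without replicate 1 and -0.020 without replicate 4. The block changed no other call among the 10 genes, and the cause of these differences was not tested. The muscle costamere count of 16 ran from 10 to 16 with the block, from 0 to 7 without it in all 8 libraries or after leaving out 1, and was 17 in replicates 1 and 2 alone and 2 in replicates 3 and 4 alone. Depth limits Smpx, at 6 to 16 counts in cold libraries.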
